A study of Mus musculus with 18 samples.

Results

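The difference that remained between treated HSA-LR mice and WT mice was measured in quadriceps muscle, from 3 libraries of HSA-LR mice given Pip6a-PMO and 3 libraries of untreated WT mice, which are 6 of the 18 RNA-seq libraries of the series. The 3 quadriceps libraries of untreated HSA-LR mice entered the same fit. With them each gene could be placed as still different, newly changed or no longer called against WT. A gene that is not called need not be at the WT level. The gastrocnemius libraries were used for comparison only. All mice had the FVB background and were 20 weeks old. All were labeled male except WT mouse 2, which was labeled female. HSA-LR mice carry a human skeletal actin transgene with a long CTG repeat in its 3′ UTR, expressed only in skeletal muscle, so the model has no repeat RNA in other tissues. Pip6a-PMO is a morpholino oligonucleotide of CAG repeats joined to the arginine-rich, cell-penetrating peptide Pip6a and injected intravenously, and the dose given to the sequenced mice is not stated in the sources used here. No WT mouse given the conjugate and no HSA-LR mouse given a control conjugate was analysed here, so an effect of the conjugate, of the transgene and of the repeat RNA left after treatment cannot be told apart in these values.

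In myotonic dystrophy type 1 (DM1), RNA with expanded CUG repeats stays in the nucleus and binds the splicing factors of the muscleblind family, such as MBNL1, so that many transcripts of adult muscle keep a fetal splice form. The chloride channel transcript Clcn1 is the best-known target, and inclusion of its exon 7a leads to loss of the channel and to myotonia, the delayed relaxation of muscle. An oligonucleotide that pairs with the CUG repeat releases MBNL1, so the comparison with WT mice asks which part of the muscle transcriptome was not at the WT level after treatment.

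Libraries held 114469895 to 130717686 counts on exon bins in treated mice and 113931962 to 118065480 in WT mice, and the 10 genes with the most counts took 25.5% to 32.1% of a quadriceps library. Levels are given as CPM, counts scaled to a common size of the normalized library, and differences as log2 fold changes (log2 FC) with their SE. The summed level of 10 skeletal muscle markers was 183560 to 208562 CPM in WT mice and 189606 to 227136 CPM in treated mice, so the labeled tissue was present in all 6. The labels do not say that the replicates of a group were littermates or processed together, and P values measure only the spread between these mice. WT mice 2 and 3 did not match their labeled sex: 4 Y-linked genes together stood at 161, 189 and 1.45 CPM in WT mice 1, 2 and 3, where WT mouse 2 was labeled female and WT mouse 3 male, and at 165 to 189 CPM in the other quadriceps libraries. The same was seen in the gastrocnemius libraries with these numbers. The 5′ to 3′ ratio of read coverage over 4626 genes was 0.838, 0.900 and 0.857 in WT mice and 0.915, 0.924 and 0.893 in treated mice; its part in the differences below was not tested.

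Of 15574 genes tested, 219 differed between treated and WT quadriceps at an adjusted P under 0.1 in edgeR's quasi-likelihood test, which is 1.41% of them. Of these, 172 were higher in treated mice (1.1% of genes tested) and 47 were lower (0.302%), and 121 differed at least 2-fold (0.777%). At an unadjusted P under 0.05, 1947 genes differed (12.5%). Treated and WT mice did not overlap in any of the 219 genes, and in 2832 of all genes tested (18.2%). Untreated HSA-LR mice differed from the same WT mice in 3169 genes (20.3%), and 2976 of these were not called after treatment. Of the 992 genes that were called in HSA-LR mice with at least a 2-fold difference, 140 (14.1%) were still called after treatment, and in 695 the difference left was under 2-fold. The median difference of all genes tested was 0.00 on the log2 scale. Because both comparisons use the same 3 WT mice, their values are given side by side and their likeness is not a separate result.

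The 219 genes fell into 4 classes by their calls. A total of 189 genes stayed different, that is, they were called against WT in the same direction before and after treatment, 152 of them higher and 37 lower. These genes are 86.3% of the genes called in treated mice and 5.96% of those called in HSA-LR mice. Before treatment their median log2 distance from WT was 1.62, and after it 1.13. In 100 of them all 3 treated mice lay between the WT and the HSA-LR mice. That order was not counted over all genes tested, and the 189 were picked as different from WT in both groups. Treated against HSA-LR mice gave 2143 calls (13.8% of genes tested), and these included 83 of the 189, each time toward WT. Another 19 genes were newly changed, being called against both WT and HSA-LR mice but not different between those, with 16 higher and 3 lower. This balance turned with DESeq2, which placed 56 higher and 87 lower genes in this class, and without HSA-LR mouse 3, with 22 higher and 40 lower. In 4 genes the treated mice were called on the other side of WT from the HSA-LR mice, and 7 genes were called against WT only.

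**Figure D1:**
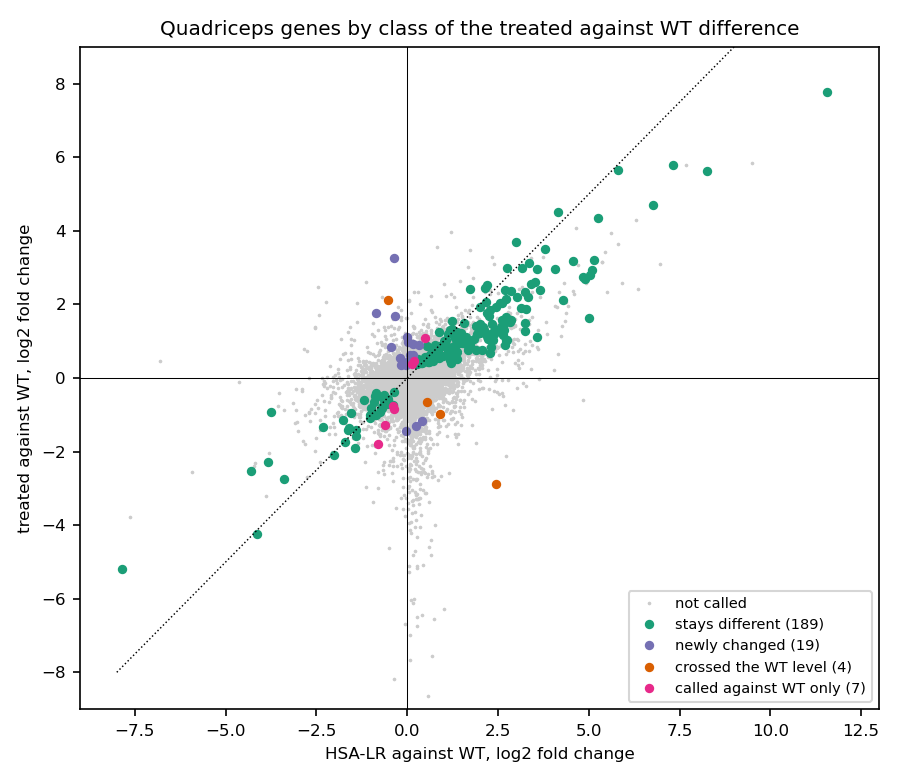
Each point is a gene tested in quadriceps, with its log2 fold change in HSA-LR against WT mice on the horizontal axis and in treated against WT mice on the vertical axis, colored by class; on the dotted line both differences are equal, and both axes use the same WT mice. Most of the 189 genes that stay different lie between the line and zero, the 19 newly changed genes lie near zero on the horizontal axis, and the 4 genes that crossed the WT level lie in the opposite quadrants.

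These counts depended on single mice. Leaving out 1 mouse gave 64 calls without WT mouse 1, 85 without WT mouse 2 and 165 without WT mouse 3. It gave 116 without HSA-LR mouse 1, 89 without HSA-LR mouse 2 and 306 without HSA-LR mouse 3. Of the treated mice, it gave 50 without mouse 1, 72 without mouse 2 and 211 without mouse 3. Without both WT mice that went against their labeled sex, 35 genes were called, in a fit with 1 WT mouse that takes its spread from the other groups and assumes that WT mice vary like them. With each of the 9 mice left out in turn, all 219 genes kept their direction. Treated and WT mice did not overlap in these genes, so that outcome was all but fixed. Called each time were 37, of which 35 stayed different, 1 was newly changed and 1 had crossed the WT level. The genes below were taken by a fixed rule on P and list membership unless it is said that they were chosen after their values were seen.

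The higher genes with the smallest P that stayed different included a motor protein, a chromatin enzyme and a neuronal hydrolase. Myo1a, which encodes a class I myosin known from the brush border of the gut, stood at 0.801, 0.467 and 0.589 CPM in WT mice, 18.7, 24.6 and 27.9 CPM in HSA-LR mice, and 14.2, 9.36 and 14.2 CPM in treated mice. All treated mice were above all WT mice and below all HSA-LR mice. The log2 FC against WT was 4.34 (SE 0.27, adjusted P = 0.000371), compared with 5.26 in HSA-LR mice, and the treated mice were lower than HSA-LR mice by a log2 FC of -0.91 (adjusted P = 0.0466). Uchl1, a ubiquitin hydrolase known from neurons, was at 3.98, 4.42 and 3.89 CPM in WT mice, 38.0, 30.3 and 39.9 CPM in HSA-LR mice and 17.6, 16.5 and 12.1 CPM in treated mice. It also lay between the groups, with a log2 FC of 1.91 against WT (SE 0.16, adjusted P = 0.00144) and 3.14 in HSA-LR mice. Galnt7, an enzyme that extends O-linked sugars on proteins, rose by a log2 FC of 1.86 against WT (adjusted P = 0.000622), from 2.37 to 3.15 CPM in WT mice to 9.37 to 10.7 CPM in treated mice. Serpinb1c, a protease inhibitor gene with near-identical relatives that can share reads, was at 1.25, 1.57 and 1.40 CPM in WT mice, 8.74, 7.29 and 6.85 CPM in HSA-LR mice and 4.77, 6.23 and 5.27 CPM in treated mice. It was called against WT (log2 FC 1.94, adjusted P = 0.00116) and, toward WT, against HSA-LR mice (-0.49, adjusted P = 0.0805). Qsox1, which forms disulfide bonds in secreted proteins, was at 19.6, 17.7 and 19.7 CPM in WT mice, 46.9, 45.5 and 54.3 CPM in HSA-LR mice and 35.3, 37.8 and 35.7 CPM in treated mice. Its log2 FC was 0.93 against WT (adjusted P = 0.00360) and 1.36 in HSA-LR mice, and treated against HSA-LR mice gave -0.43 (adjusted P = 0.0254).

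In another set of genes the treated mice were not apart from the HSA-LR mice. Lrba, which encodes a scaffold of vesicle traffic, was at 6.87, 7.14 and 5.2 CPM in WT mice, 38.6, 45.2 and 46.3 CPM in HSA-LR mice and 57.3, 61.2 and 35.0 CPM in treated mice. Its treated values span the HSA-LR values and are all above WT (log2 FC 3.0, SE 0.22, adjusted P = 0.000949), and treated against HSA-LR mice gave 0.24 (adjusted P = 0.485). Kmt2d, which encodes a histone H3 lysine 4 methyltransferase, was at 64.2, 66.2 and 59.9 CPM in WT mice, 185, 181 and 200 CPM in HSA-LR mice and 173, 152 and 210 CPM in treated mice. The treated mice overlapped the HSA-LR mice and were all above WT (log2 FC 1.49, SE 0.12, adjusted P = 0.00108; 1.57 in HSA-LR mice). Prune2 was at 1.21 to 1.67 CPM in WT mice, 7.23, 9.61 and 10.4 CPM in HSA-LR mice and 8.43, 7.95 and 5.47 CPM in treated mice (log2 FC 2.38, adjusted P = 0.00266). Trp73, a p53-family transcription factor chosen here after its values were seen, was below 0.31 CPM in each WT mouse and at 4.49, 2.99 and 3.24 CPM in treated mice (log2 FC 4.52, adjusted P = 0.0121; 4.15 in HSA-LR mice).

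Another group had come most of the way toward WT in CPM and was still called. Chia1, a chitinase, was at 0.0704, 0.0529 and 0.104 CPM in WT mice, 2.72, 1.94 and 2.24 CPM in HSA-LR mice and 0.507, 0.474 and 0.512 CPM in treated mice. The treated values were apart from both groups (log2 FC 2.70 against WT, adjusted P = 0.00429, and 4.90 in HSA-LR mice). Eda2r, a receptor of the tumor necrosis factor family and the 1 called member of 19 tested p53 targets, was at 7.12, 10.2 and 5.17 CPM in WT mice, 72.3, 65.0 and 76.1 CPM in HSA-LR mice and 19.3, 19.4 and 16.4 CPM in treated mice. Its log2 FC was 1.29 against WT (adjusted P = 0.0446) and 3.24 in HSA-LR mice, and the call was lost without WT mouse 1, treated mouse 1 or treated mouse 2 (adjusted P up to 0.170). Cilp, a cartilage matrix protein chosen after its values were seen, was at 12.7, 14.5 and 16.1 CPM in WT mice, 341, 256 and 241 CPM in HSA-LR mice and 98.3, 59.1 and 32.6 CPM in treated mice. Its log2 FC of 2.14 (adjusted P = 0.0433) fell short of 4.28 in HSA-LR mice, and it was not called without WT mouse 1, WT mouse 2 or treated mouse 2 (adjusted P up to 0.156).

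The lower genes with the smallest P that stayed different included a vesicle tether and a secreted glycoprotein, and of the lower genes described here Gdpd5 was called toward WT when treated and HSA-LR mice were compared. Sytl2, which tethers secretory vesicles, was at 7.42, 9.32 and 8.77 CPM in WT mice, 2.29, 2.33 and 1.68 CPM in HSA-LR mice and 2.03, 1.86 and 2.11 CPM in treated mice. The treated mice overlapped the HSA-LR mice and were all below WT, with a log2 FC of -2.09 (SE 0.16, adjusted P = 0.00108) beside -2.02 in HSA-LR mice. Dkk3, a secreted glycoprotein of the Dickkopf family, was at 52.8, 61.0 and 12.7 CPM in WT mice, 2.19, 2.36 and 2.6 CPM in HSA-LR mice and 2.37, 1.91 and 2.44 CPM in treated mice. WT mouse 3 was well below the other WT mice and still above every treated mouse (log2 FC -4.23, SE 0.51, adjusted P = 0.0121). Gstm2, a glutathione transferase of a family with close relatives, was at 52.3, 55.8 and 92.2 CPM in WT mice, 27.7, 24.1 and 23.5 CPM in HSA-LR mice and 26.5, 21.1 and 27.2 CPM in treated mice. Its log2 FC was -1.42 (adjusted P = 0.0296; -1.41 in HSA-LR mice), and the call was lost without treated mouse 1 or 2 (adjusted P up to 0.118).

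The phosphodiesterase gene Gdpd5 was lower by a log2 FC of -1.14 (adjusted P = 0.00596) and differed from the others in that treated mice, at 6.26, 6.39 and 7.02 CPM, had moved toward the 13.3 to 15.6 CPM of WT mice from 3.64 to 4.74 CPM in HSA-LR mice (adjusted P = 0.0213). Npl, an enzyme that breaks down sialic acid, had a log2 FC of -0.82 (adjusted P = 0.0122), and Map3k15, a stress kinase, had -1.89 (adjusted P = 0.0296; 0.115 without treated mouse 1). Gcat, which breaks down threonine in mitochondria, had a log2 FC of -0.71 (adjusted P = 0.0319), and Tmco4 had -0.73 (adjusted P = 0.0443). Both lost the call without WT mouse 1, treated mouse 1 or treated mouse 2, and Tmco4 also without WT mouse 2 (adjusted P up to 0.150 for Gcat and 0.188 for Tmco4). Gm6665 had -1.58 (adjusted P = 0.0411; up to 0.155 without treated mouse 1 or 2). Themis3 was near zero in treated mice, at 0.0543, 0 and 0.0168 CPM, and at 1.23, 1.04 and 0.398 CPM in WT mice (adjusted P = 0.0319).

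**Figure D2:**
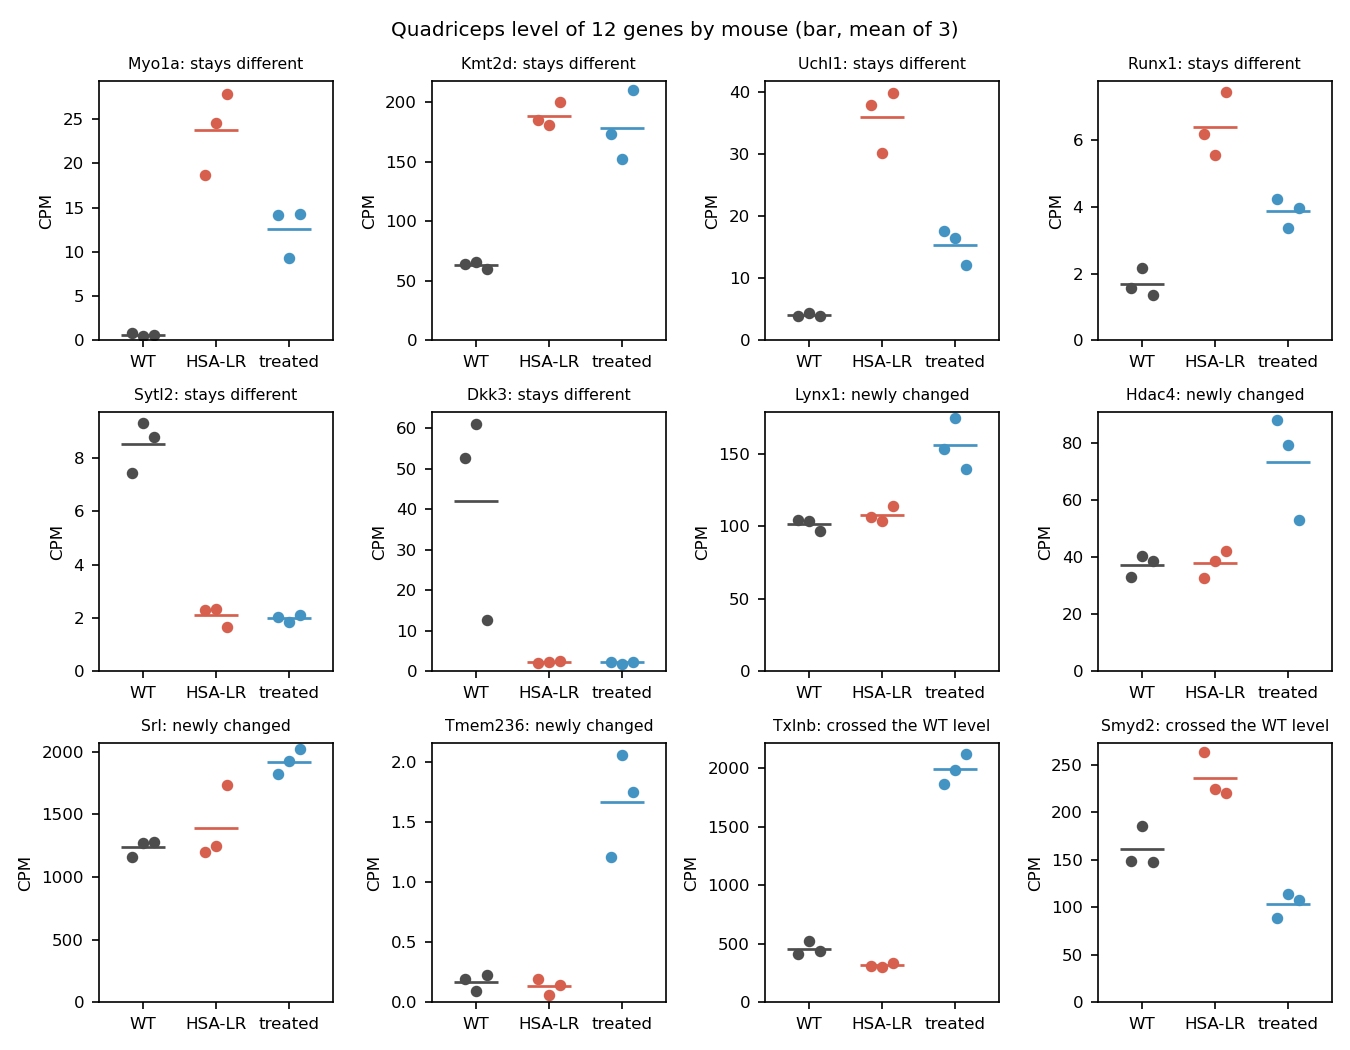
Level of 12 genes in CPM, 1 point a quadriceps library and a bar at the mean of the 3 mice, for WT, HSA-LR and treated mice, with the class of each gene in its title. Treated mice lie between the other groups for Myo1a, Uchl1 and Runx1, at the HSA-LR level for Kmt2d, Sytl2 and Dkk3, and away from both groups for Lynx1, Hdac4, Srl, Tmem236, Txlnb and Smyd2.

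Among the 19 genes newly changed after treatment were Lynx1, Hdac4, Srl and Atp2b3. Whether any function was more frequent among the 19 than among all genes was not tested. Lynx1, which encodes a membrane-bound modulator of nicotinic acetylcholine receptors, was at 105, 103 and 96.6 CPM in WT mice, 106, 104 and 114 CPM in HSA-LR mice and 153, 174 and 139 CPM in treated mice. All treated mice were above all others (log2 FC 0.62, SE 0.09, adjusted P = 0.0312), and the call was lost without treated mouse 1 (adjusted P = 0.124). Hdac4, a histone deacetylase known to be induced by denervation, was at 32.9, 40.4 and 38.6 CPM in WT mice, 32.7, 38.6 and 42.2 CPM in HSA-LR mice and 87.8, 79.3 and 52.9 CPM in treated mice. Its log2 FC was 0.98 against WT (SE 0.18, adjusted P = 0.0653) and 0.02 in HSA-LR mice, and the call was lost without any 1 of the WT mice, HSA-LR mouse 2, treated mouse 1 or treated mouse 2 (adjusted P up to 0.227).

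Srl, which encodes sarcalumenin, a calcium-binding protein of the sarcoplasmic reticulum, was at 1156, 1271 and 1280 CPM in WT mice and 1818, 1922 and 2022 CPM in treated mice, with HSA-LR mice at 1197, 1246 and 1734 CPM. Its log2 FC was 0.64 (adjusted P = 0.0953), and leaving out any mouse except HSA-LR mouse 3 ended the call (adjusted P up to 0.314). Atp2b3, a calcium pump of the plasma membrane, had a log2 FC of 0.94 (adjusted P = 0.0680) and stood at 13.7, 18.1 and 17.4 CPM in WT mice and 34, 26.1 and 34.1 CPM in treated mice. Leaving out any mouse except HSA-LR mouse 1 or 3 ended the call (adjusted P up to 0.245).

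Rpn1, a subunit of the enzyme that attaches sugars to proteins in the endoplasmic reticulum, was at 92.6, 87.3 and 77.0 CPM in WT mice and 116, 126 and 125 CPM in treated mice (log2 FC 0.51, adjusted P = 0.05). It lost the call without WT mouse 2, treated mouse 1 or treated mouse 2 (adjusted P up to 0.163). Osgin1, a gene induced by oxidative stress, had a log2 FC of 0.84 (adjusted P = 0.0680), Ccdc117 had 0.44 (adjusted P = 0.0759) and Aox2, an aldehyde oxidase below 1 CPM in every mouse, had 1.76 (adjusted P = 0.0534). The call was lost for Osgin1 without any mouse except HSA-LR mouse 1 or 3 (adjusted P up to 0.233), for Ccdc117 without any except WT mouse 3 or HSA-LR mouse 3 (up to 0.247), and for Aox2 without any 1 of the WT mice or treated mouse 1 (up to 0.185).

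Txlnb had the smallest P of all genes and the clearest departure from both WT and HSA-LR mice. It encodes beta-taxilin, a protein found in skeletal and heart muscle that binds syntaxins. It stood at 412, 520 and 442 CPM in WT mice, 312, 306 and 338 CPM in HSA-LR mice and 1862, 1985 and 2119 CPM in treated mice, and the 3 groups did not overlap. The log2 FC was 2.12 against WT (SE 0.11, adjusted P = 0.000133), -0.52 for HSA-LR against WT (adjusted P = 0.0120) and 2.64 for treated against HSA-LR mice (adjusted P = 2.2e-05). The call held when each mouse was left out (log2 FC 2.05 to 2.22). In 10 of its 12 exon bins, those with a mean of at least 50 counts, the treated to WT ratio was 4.22 to 4.57, with a median of 4.46, so these bins rose by like factors. Txlnb lies on the plus strand at chr10:17796226-17845665 (GRCm38), and none of the other tested genes within 300 kb, Gm20655, Reps1 and Ect2l, was called (log2 FC of Reps1 0.05). Gastrocnemius gave a log2 FC of 2.19 (adjusted P = 7.27e-05).

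Because the conjugate is a CAG oligonucleotide, runs of at least 7 CTG in annotated transcripts were looked up in GENCODE M21 on GRCm38. The 2 called genes with such a run were Txlnb, with 9 repeats in the UTR of its first exon upstream of the coding sequence, and Tnfrsf22, with 10 repeats in its coding sequence. The sequences are given on the transcript strand, as the stretch to which a CAG oligonucleotide could pair, with the repeat in capitals:
Txlnb, chr10:17796329-17796357, plus strand: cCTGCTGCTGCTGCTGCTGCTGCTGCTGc
Tnfrsf22, chr7:143649542-143649571, minus strand: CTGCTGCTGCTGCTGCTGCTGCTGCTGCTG
Tnfrsf22, a decoy receptor for a death ligand, was at 1.98, 2.18 and 2.96 CPM in WT mice, 4.67, 4.60 and 3.77 CPM in HSA-LR mice and 4.49, 3.80 and 4.77 CPM in treated mice. Treated and HSA-LR mice overlapped and both were above WT (log2 FC 0.87 in each, adjusted P = 0.0788 for treated mice), and leaving out any mouse except WT mouse 3 or HSA-LR mouse 3 ended the call (adjusted P up to 0.263). Of 65 genes with such a run in the files, 50 were tested, 2 were higher and 0 lower against 1.41% of all genes called, and their median log2 FC was 0.01. DESeq2 called 8 of the 50 and limma voom 2, and 15 had an unadjusted P under 0.05; over all genes tested, DESeq2 called 4.8%, voom 0.963% and 12.5% had such a P. Dmpk, the gene mutated in DM1, was not called (log2 FC 0.21, adjusted P = 0.590; 0.52 in HSA-LR mice), nor was Acta1, the mouse skeletal actin gene (0.13, adjusted P = 0.671). Whether the run bears on the level of Txlnb was not tested.

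A pair of neighbors on chromosome 2 was changed in treated mice alone. Tmem236, a membrane protein gene at chr2:14174523-14221993, was at 0.194, 0.0970 and 0.225 CPM in WT mice, 0.194, 0.0652 and 0.144 CPM in HSA-LR mice and 1.20, 2.05 and 1.75 CPM in treated mice. All treated mice were above all others, with a log2 FC of 3.27 (SE 0.42, adjusted P = 0.0142) and a call with each mouse left out. Gastrocnemius gave 2.91 (adjusted P = 0.0035). Upstream on the same strand lies Stam, an adaptor of endosomal sorting, which ends 24889 bases before Tmem236 starts and was not called as a gene (log2 FC 0.15, adjusted P = 0.542). Within Stam, bin 29 (chr2:14141878-14144365, 2488 bases of coding sequence and UTR) took 2.07%, 1.77% and 2.13% of the counts of the gene in WT mice, 1.28%, 1.44% and 1.93% in HSA-LR mice and 7.17%, 11.6% and 10.2% in treated mice. Its usage was higher than WT by 2.27 on the log2 scale (adjusted P = 1.06e-11) and higher than HSA-LR by 2.63, and it was called with each of the 6 treated and WT mice left out. In gastrocnemius the bin took 1.73%, 1.98% and 2.11% in WT mice and 8.04%, 9.35% and 9.65% in treated mice. The gene between them, Gm37499, and the next gene downstream, Mrc1, a macrophage mannose receptor, were not called (log2 FC -0.41 and 0.00).

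The other genes that had crossed the WT level were lower than WT after treatment. Smyd2, a lysine methyltransferase with cytosolic targets in muscle, was at 149, 186 and 148 CPM in WT mice, 264, 225 and 220 CPM in HSA-LR mice and 88.7, 114 and 107 CPM in treated mice. The groups did not overlap, and the log2 FC was -0.64 against WT (adjusted P = 0.0760) and 0.55 in HSA-LR mice. Leaving out any mouse except HSA-LR mouse 3 ended the call (adjusted P up to 0.264). The RNA gene 4430402I18Rik had a log2 FC of -0.99 against 0.91 in HSA-LR mice, and Gm20743, near zero in WT mice, had -2.89 against 2.45; both were chosen after their values were seen.

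Genes known from the muscle defect of DM1 were not called different from WT. Clcn1 was at 297, 373 and 269 CPM in WT mice, 174, 157 and 175 CPM in HSA-LR mice and 305, 285 and 383 CPM in treated mice, which overlapped WT (log2 FC 0.05, adjusted P = 0.918; -0.89 in HSA-LR mice, adjusted P = 0.00535). The log2 FC of Mbnl1 was 0.06, of the calcium pump gene Atp2a1 -0.02, of the tubule-forming Bin1 0.06, of the insulin receptor gene Insr 0.16, of dystrophin (Dmd) 0.29, of the Z-disc gene Ldb3 0.18 and of Sos1 0.25, none of them called. Exon 7a of Clcn1 (chr6:42293444-42293522) took 0.0949%, 0.0876% and 0.0868% of the counts of the gene in WT mice, 1.14%, 1.19% and 1.08% in HSA-LR mice and 0.208%, 0.173% and 0.114% in treated mice. All treated mice were above WT, but the difference of 0.84 on the log2 scale was not called (unadjusted P = 0.00339 and adjusted P = 1.0 in edgeR's exon usage test), compared with 3.65 in HSA-LR mice. Exon 5 of Mbnl1 differed from WT by 0.29 after treatment and 2.51 before, and exon 22 of Atp2a1 by -0.12 and -2.19, neither called after treatment.

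Differences in exon usage that remained were few, and several of them lay in the same genes. Of 172858 exon bins tested in 11538 genes, 61 bins in 29 genes were used differently in treated and WT mice (0.0353% of bins), 42 more (0.0243%) and 19 less (0.011%), compared with 491 (0.284%) in HSA-LR mice. Without WT mouse 3 the balance turned to 24 more and 33 less, and limma's diffSplice gave 52 and 43. Of the 61, 45 in 16 genes stayed different, 11 in 10 genes were newly changed and 5 were called against WT only. Kmt2d held 17 of the bins, 16 used more and 1 less, and was the 1 gene also called by its level. Its counts thus did not rise evenly over its bins, and both kinds of call rest on the same counts. Among the Kmt2d bins only bin 53 was called in every alternative setting. Bin 28 was called in 8 of 9, and bins 35, 36, 39 and 58 in 2 of 8. Kmt2c, a relative of Kmt2d and another histone H3 lysine 4 methyltransferase, held 7 bins, and the fast troponin T gene Tnnt3 held 4. Leaving out 1 mouse gave 26 called bins without WT mouse 1, 226 without WT mouse 2 and 37 without treated mouse 1.

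Splice targets that had returned most of the way were still above WT by a small share of reads. In Tnnt3, bin 19 took 0.0202%, 0.0211% and 0.0254% in WT mice, 1.73%, 2.64% and 2.12% in HSA-LR mice and 0.106%, 0.0590% and 0.0467% in treated mice, a difference of 1.65 on the log2 scale left of 6.60. In Ldb3, which encodes a Z-disc protein, bin 7 took 0.0545%, 0.0718% and 0.0613% in WT mice, 1.57%, 1.74% and 1.33% in HSA-LR mice and 0.211%, 0.203% and 0.117% in treated mice (1.51 left of 4.61). In both bins every treated mouse was above every WT mouse and far below every HSA-LR mouse, and both were called with each treated or WT mouse left out (adjusted P up to 0.0540 and 0.00435). Kmt2c bin 34 took 0.203%, 0.832% and 0.583% in WT mice, 9.95%, 6.44% and 7.90% in HSA-LR mice and 2.42%, 2.64% and 3.71% in treated mice (2.34 left of 3.81). Kmt2d bin 28 took 1.51%, 3.34% and 1.76% in WT mice, 5.76%, 6.62% and 6.09% in HSA-LR mice and 5.85%, 6.38% and 5.71% in treated mice, so it had stayed at the HSA-LR share (1.42 beside 1.47), and its call was lost without WT mouse 1 (adjusted P = 0.165). These bins of Tnnt3, Ldb3, Kmt2c and Kmt2d were chosen after their values were seen.

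**Figure D3:**
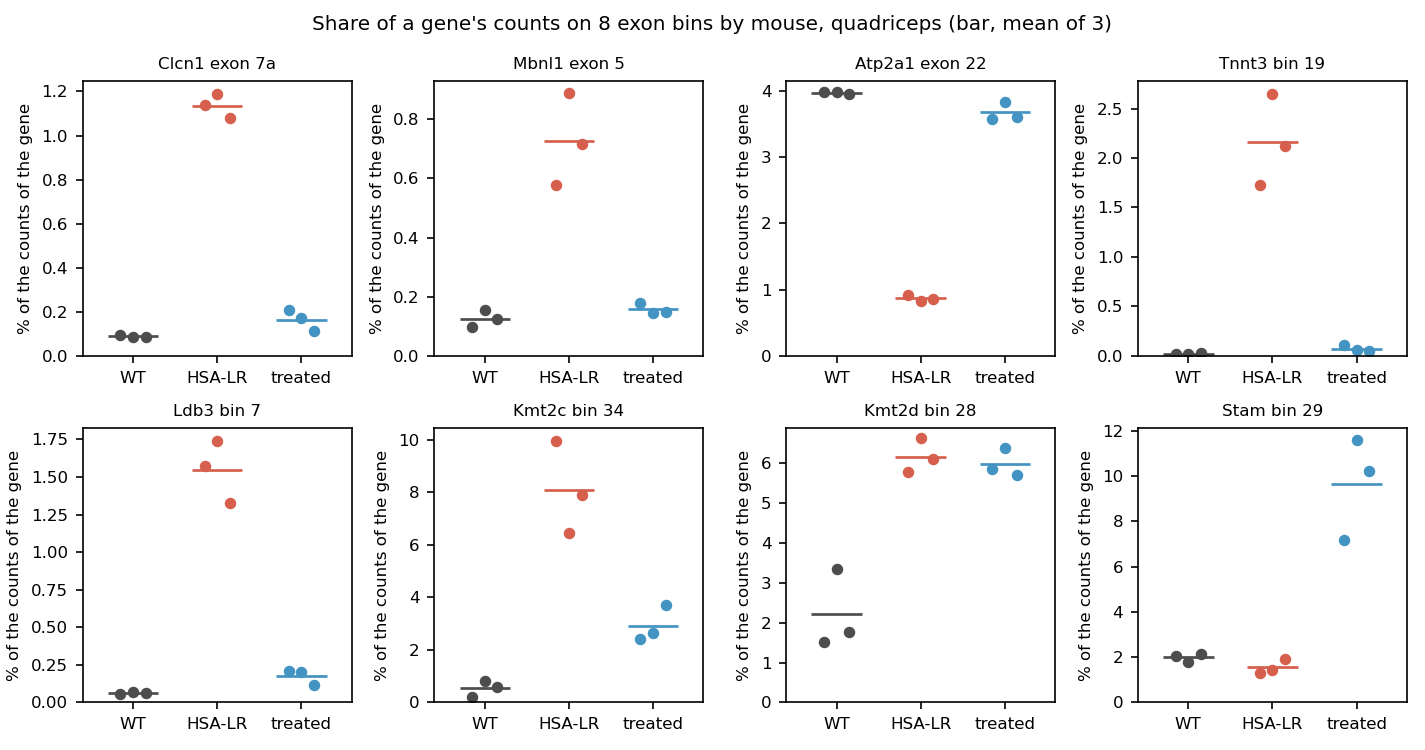
Share of the counts of a gene on 8 exon bins, in percent, 1 point a quadriceps library and a bar at the mean of the 3 mice, for WT, HSA-LR and treated mice. Treated mice are near WT for Clcn1 exon 7a, Mbnl1 exon 5, Atp2a1 exon 22, Tnnt3 and Ldb3, part of the way for Kmt2c, at the HSA-LR level for Kmt2d and above both groups for Stam.

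Bins used less in treated than in WT mice often depended on 1 or a few libraries. Bin 7 of Atp5f1, a subunit gene of the mitochondrial ATP synthase, did not: it took 0.232%, 0.299% and 0.327% in WT mice, 0.0517%, 0.0650% and 0.0578% in HSA-LR mice and 0.0583%, 0.0578% and 0.0605% in treated mice. It was lower by -2.29 on the log2 scale (adjusted P = 1.07e-13) and was called with each treated or WT mouse left out. Bin 25 of Tpm1 (tropomyosin, -3.57, adjusted P = 7.11e-14) took 0.407% in WT mouse 2 and at most 0.0225% in every other mouse, and was not called without that mouse (-0.43, adjusted P = 1.0). Bin 2 of Morf4l1, a chromatin protein gene (-1.62, adjusted P = 5.31e-09), took 7.80% in WT mouse 2, 2.27% and 2.46% in the other WT mice and 1.27% to 1.64% in treated mice, and was not called without WT mouse 2 (adjusted P = 0.482). Bin 23 of the chaperone gene Hsp90ab1 (-2.75, adjusted P = 1.57e-09) was at 0.0473%, 0.00274% and 0.0590% in WT mice and 0.00325% to 0.00684% in treated mice, and so overlapped through WT mouse 2. Of 9 newly lowered bins, 7 (in Pepd, Mlxipl, Idh3b, Immt, Sept9 and Adipor2, a pattern chosen after the values were seen) were highest in WT mouse 1 and HSA-LR mice 1 and 2, the 3 libraries with the most adipocyte marker RNA, and the part of that RNA was not tested. The other 2, in Palld and Ergic1, did not follow this order. Pepd bin 19, for example, was at 1.45%, 0.396% and 0.685% in WT mice, 1.21%, 2.04% and 0.0186% in HSA-LR mice and 0.0941%, 0.0947% and 0.0769% in treated mice.

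Lists of genes by function were then counted beside the 1.41% of all genes called. The lists were chosen with earlier results of these data known, so a count above that share is not separate support for a function. A gene can be in more than 1 list, as Hdac4 is. In the list of neuromuscular junction and denervation genes, 3 of 22 tested were higher and 0 lower: Kcnn3, Runx1 and Hdac4. Kcnn3, a small-conductance potassium channel that reappears in denervated and myotonic muscle, was at 0.757, 1.28 and 1.84 CPM in WT mice, 11.3, 11.0 and 14.8 CPM in HSA-LR mice and 7.32, 5.80 and 6.42 CPM in treated mice. All treated mice were above WT and below HSA-LR (log2 FC 2.33, SE 0.29, adjusted P = 0.0121; 3.26 in HSA-LR mice). Runx1, a transcription factor raised by denervation, was at 1.58, 2.16 and 1.36 CPM in WT mice, 6.18, 5.55 and 7.44 CPM in HSA-LR mice and 4.24, 3.37 and 3.97 CPM in treated mice. It too lay between the groups (log2 FC 1.18, adjusted P = 0.0449; 1.91 in HSA-LR mice), and lost the call without WT mouse 1 or treated mouse 1 (adjusted P up to 0.186). The receptor subunit genes did not move together: log2 FC was 0.08 for Chrna1, -0.37 for Chrnb1, 0.45 for Chrnd and -0.19 for Chrne, none of them called. The median log2 FC of the list was 0.45, with 11 of 22 at an unadjusted P under 0.05 (12.5% of all genes) and 6 called by DESeq2 (4.8% of all genes).

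Heat shock genes had small positive differences, of which 2 were called. All 25 tested had a positive log2 FC, with a median of 0.26 (0.34 in HSA-LR mice) and 10 at an unadjusted P under 0.05 (12.5% of all genes), but only Hspa2 and Hspb1 were called. Hspa2, a member of the HSP70 family, was at 2.76, 2.41 and 2.67 CPM in WT mice, 11.7, 9.46 and 10.1 CPM in HSA-LR mice and 5.47, 6.29 and 6.70 CPM in treated mice, with no overlap (log2 FC 1.24, adjusted P = 0.00493; 2.0 in HSA-LR mice). Hspb1, a small chaperone of the Z-disc, was at 117, 83.2 and 128 CPM in WT mice and 209, 191 and 225 CPM in treated mice (log2 FC 0.93, adjusted P = 0.0953), and was not called without any mouse other than HSA-LR mouse 2 or 3 (adjusted P up to 0.288). Of the inducible HSP70 genes, Hspa1a had a log2 FC of 1.58 (adjusted P = 0.329), and the cochaperone gene Bag3 had 0.58 (adjusted P = 0.180).

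Of 22 myogenic and satellite cell genes 1 was called, Myh8, the perinatal myosin heavy chain, at 6.23, 5.56 and 6.97 CPM in WT mice, 13.6, 14.1 and 15.8 CPM in HSA-LR mice and 9.87, 9.39 and 9.11 CPM in treated mice (log2 FC 0.60, adjusted P = 0.0575; 1.21 in HSA-LR mice). Of 25 genes of the dystrophin-glycoprotein complex 1 was called, Sspn, which encodes sarcospan (log2 FC 0.43, adjusted P = 0.0742; 0.56 in HSA-LR mice). Of 27 calmodulin kinase and calcineurin genes 2 were higher, Hdac4 and Camk2d, the latter a calcium-dependent kinase at 53.6, 59.7 and 62.3 CPM in WT mice, 166, 136 and 152 CPM in HSA-LR mice and 86.2, 81.2 and 81.7 CPM in treated mice (log2 FC 0.50, adjusted P = 0.0586; 1.37 in HSA-LR mice). The call of Myh8 was kept without WT mouse 3, HSA-LR mouse 3 or treated mouse 3 and lost without each other mouse (adjusted P up to 0.227). That of Sspn was kept without HSA-LR mouse 3 only (up to 0.240). That of Camk2d was lost without WT mouse 1, WT mouse 2 or any 1 of the treated mice (up to 0.235). With the largest exon bin of a gene, Myh8 (edgeR adjusted P = 0.773) and Camk2d were not called, while Sspn was. The medians of the myogenic, dystrophin-glycoprotein and calmodulin kinase lists were 0.46, 0.16 and 0.05. At an unadjusted P under 0.05 in edgeR were 8, 8 and 4 of their genes (12.5% of all genes). DESeq2 called 7, 7 and 3 of them (4.8% of all genes).

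In metabolism the calls were few and small. Of 36 glycolysis and glycogen genes 2 were higher: Fbp2, the muscle fructose bisphosphatase, at 13.4, 14.5 and 13.2 CPM in WT mice, 56.9, 61.4 and 81.9 CPM in HSA-LR mice and 20.7, 22.1 and 22.6 CPM in treated mice (log2 FC 0.67, adjusted P = 0.0680; 2.29 in HSA-LR mice), and Pfkfb4, a regulator of glycolytic flux (0.50, adjusted P = 0.0941; 0.63 in HSA-LR mice). Of 34 genes of insulin and growth factor signaling 1 was higher, Grb14, an adaptor that inhibits the insulin receptor (0.47, adjusted P = 0.0953; 0.61 in HSA-LR mice). At an unadjusted P under 0.05 in edgeR were 6 of the glycolysis and 9 of the insulin list (12.5% of all genes). DESeq2 called 2 and 7 of them (4.8% of all genes). Leaving out 1 mouse ended the call of Fbp2 unless it was HSA-LR mouse 1 or 3 (adjusted P up to 0.222), of Pfkfb4 unless it was HSA-LR mouse 3 or treated mouse 3 (up to 0.325), and of Grb14 unless it was WT mouse 3 or HSA-LR mouse 3 (up to 0.323). Of 23 histone methylation genes, Kmt2d was higher and Smyd2 lower. Of 23 genes of limb position, Hoxa10 was lower, at 6.53, 7.86 and 5.79 CPM in WT mice and 3.49, 3.90 and 4.19 CPM in treated mice (log2 FC -0.80, adjusted P = 0.0521; -0.99 in HSA-LR mice), and was not called without WT mouse 1, WT mouse 2, treated mouse 1 or treated mouse 2 (adjusted P up to 0.213).

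Some lists with calls in HSA-LR mice held no call after treatment. Of all 15574 genes tested, edgeR called 1719 higher in HSA-LR mice and 1.41% in either direction in treated mice. A count of 0 in a list of this size is therefore close to the share of all genes. Of all genes in treated against WT mice, 12.5% had an unadjusted P under 0.05 in edgeR, DESeq2 called 4.8% and voom 0.963%. Of 35 extracellular matrix genes, 15 were higher in HSA-LR mice (median log2 FC 0.48) and 0 in treated mice by edgeR (median 0.03), with 6 at an unadjusted P under 0.05, 2 called by DESeq2 and 0 by voom. Of 52 genes of the cytosolic ribosome, 11 were higher before treatment and 0 after it by edgeR (median -0.01), with 0 at an unadjusted P under 0.05 and 0 called by DESeq2 or voom. Of 15 macrophage markers, 9 were higher in HSA-LR mice (median 0.84) and 0 in treated mice by edgeR (median 0.02), with 1 at an unadjusted P under 0.05, 1 called by DESeq2 and 0 by voom. Immediate early genes had a median log2 FC of -0.50 in treated and 0.42 in HSA-LR mice. Of 27 tested edgeR called 0 in treated against WT mice, with 8 at an unadjusted P under 0.05, 3 called by DESeq2 and 0 by voom. Against HSA-LR mice edgeR called 7 of the 27 lower and 0 higher in treated mice, beside 1124 and 1019 of all genes.

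**Figure D4:**
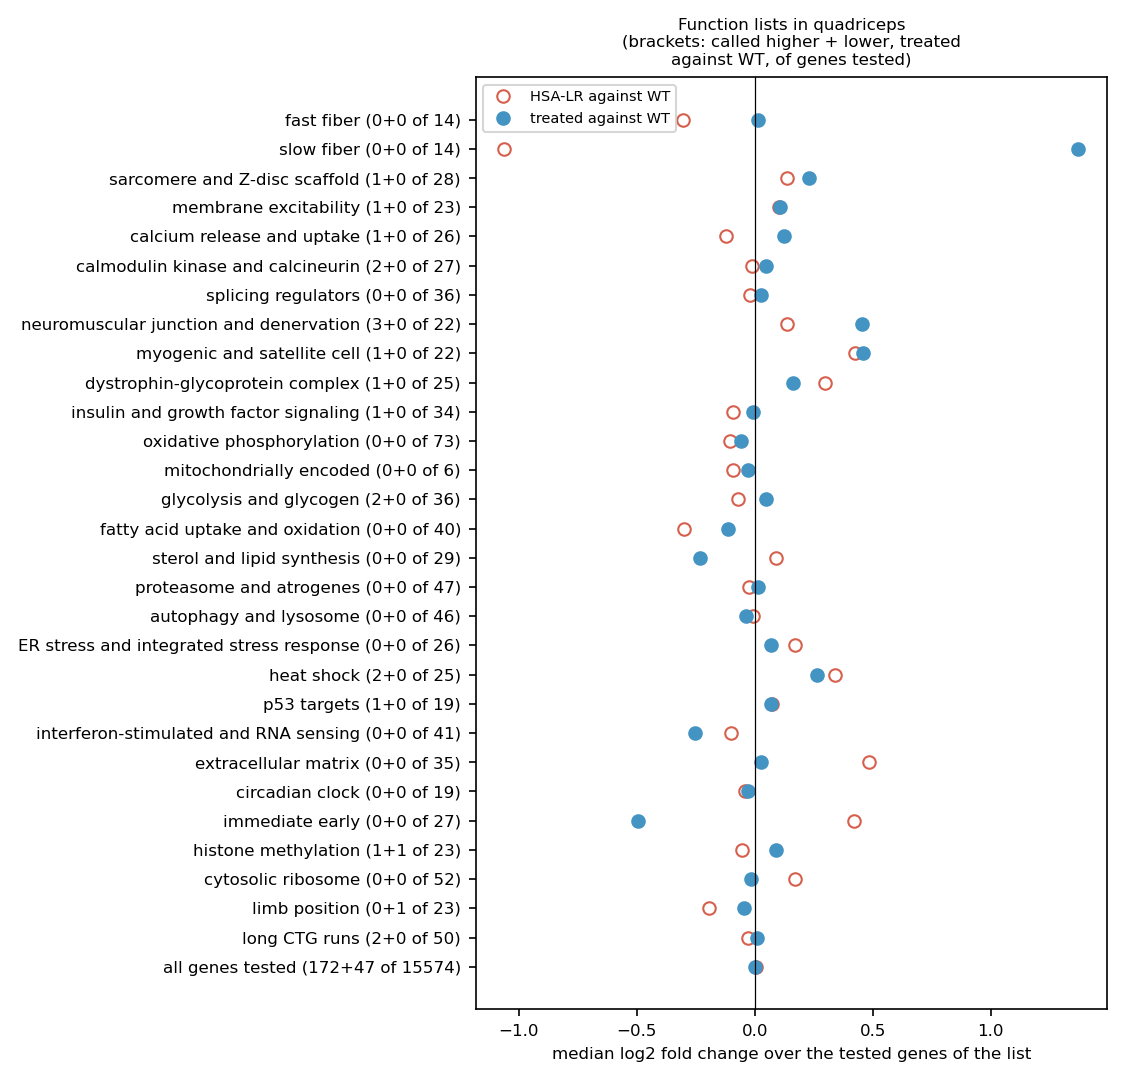
Median log2 fold change over the tested genes of each function list in quadriceps, for HSA-LR against WT mice (open circles) and treated against WT mice (filled circles), which share the WT mice, with the number called higher and lower in treated mice in brackets. Extracellular matrix and cytosolic ribosome genes are near zero after treatment. Slow fiber genes lie to the right in treated and to the left in HSA-LR mice, without a call in treated against WT mice.

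Slow fiber genes had the highest list median in treated against WT mice, without a call in that comparison. All 14 had a positive log2 FC, from 0.24 to 2.62 with a median of 1.37 (-1.06 in HSA-LR mice). Against WT edgeR called 0, with 1 at an unadjusted P under 0.05 and 0 called by DESeq2 or voom. Against HSA-LR mice edgeR called 7 of the 14 higher and 0 lower in treated mice. Of all 15574 genes, that comparison called 1019 higher and 1124 lower. Their summed level was 2099, 1990 and 3548 CPM in WT mice, 1806, 2217 and 4458 CPM in HSA-LR mice and 4500, 5560 and 2564 CPM in treated mice. Treated mice 1 and 2 were above all WT mice and treated mouse 3 lay among them. Myh7, the slow myosin heavy chain, was at 38.8 ± 47.3 CPM (SD, n = 3) in WT mice and 215 ± 239 CPM (SD, n = 3) in treated mice. Fast fiber genes had a median of 0.01, against -0.30 in HSA-LR mice, with 0 of 14 called by edgeR, DESeq2 or voom and 0 at an unadjusted P under 0.05.

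Marker lists of other cell types also differed between mice. In bulk muscle, fewer cells of a type and less RNA per cell cannot be told apart. The 12 adipocyte markers together were at 2016, 507 and 664 CPM in WT mice, 1347, 1980 and 153 CPM in HSA-LR mice and 349, 400 and 196 CPM in treated mice. All treated mice were below all WT mice, while the HSA-LR mice spanned both groups. The median log2 FC of the 12 was -1.96, and edgeR called 0 of them, with 3 at an unadjusted P under 0.05, 2 called by DESeq2 and 0 by voom. Erythroid markers, which include the globin genes, together were at 301, 196 and 201 CPM in WT mice, 311, 334 and 80.4 CPM in HSA-LR mice and 539, 706 and 361 CPM in treated mice. Treated mice were above all others, with a median log2 FC of 1.21 over 6 genes tested, 0 called by edgeR, DESeq2 or voom and 2 at an unadjusted P under 0.05. Medians were below zero for endothelial (-0.28, 11 tested), nerve and Schwann (-0.34, 12 tested), smooth muscle (-0.14, 8 tested) and lymphocyte markers (-0.67, 4 tested). At an unadjusted P under 0.05 in edgeR were 3, 3, 2 and 0 of them, with 0 called by edgeR, DESeq2 or voom. Summed levels of treated and WT mice overlapped in these 4 lists. The 10 fibroblast markers tested had a median of -0.02, with 3 at an unadjusted P under 0.05 in edgeR. DESeq2 called 3 of them, and edgeR and voom called 0. No marker of these lists was at 0 in the files, and the part of these cells in the gene calls was not tested.

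**Figure D5:**
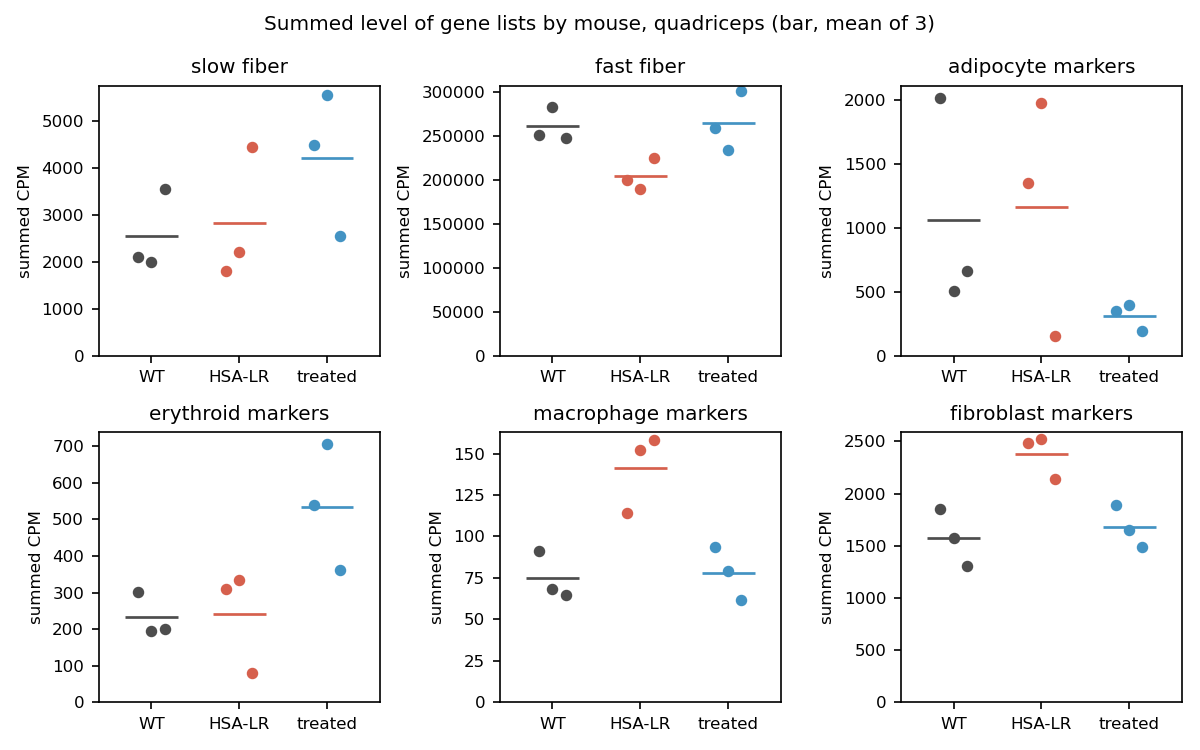
Summed level in CPM of 6 gene lists, 1 point a quadriceps library and a bar at the mean of the 3 mice, for WT, HSA-LR and treated mice. Treated mice lie below WT for adipocyte markers and above WT for erythroid markers, span the WT values for fast fiber genes, and for slow fiber genes 2 of 3 treated mice exceed every WT mouse; macrophage and fibroblast markers of treated mice are in the range of WT or close to it.

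Part of the residual difference in quadriceps was also called in gastrocnemius. The study took both muscles from the same treated mice, but the labels do not say that equal replicate numbers mark 1 mouse. Deviations from group means correlated between same-numbered libraries of the muscles (r 0.09 to 0.55 over genes). The muscles are therefore not taken as independent. Of the 219 genes, 216 were tested there, and 72 were called in the same direction, in a comparison that called 163 of 15625 genes (1.04%). Among genes that stayed different 66 of 186 tested were called in both muscles, and among newly changed genes 3 of 19. Tmem236 and Rpn1 (log2 FC 0.55, adjusted P = 0.0902 in gastrocnemius) were among the latter. Lynx1 had 0.32 (adjusted P = 0.628), Hdac4 0.65 (adjusted P = 0.269), Kcnn3 0.69 (adjusted P = 0.515) and Runx1 0.45 (adjusted P = 0.416) there. The difference between the muscles was itself tested in 16167 genes, in 1 fit of the 18 libraries without a term for the mouse. An alternative fit with a block by group and replicate number, taken to mark the mouse, called 0. Without the block edgeR also called 0, with 589 at an unadjusted P under 0.05 (3.64%), and limma voom called 0. The smallest P were those of Mymk, a membrane fusion protein of myoblasts (log2 FC 1.36 in quadriceps and -1.80 in gastrocnemius, adjusted P = 0.986), and Adcy7, an adenylate cyclase (0.48 and -0.54, adjusted P = 0.986).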

How the data were processed

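RNA-seq of polyadenylated RNA was made from quadriceps and gastrocnemius of 3 WT, 3 HSA-LR and 3 treated HSA-LR mice. The values deposited by the authors are whole-number counts of read pairs per exon bin, not normalized; the submitters' processing notes name CASAVA, HISAT, featureCounts 1.5.0 and GRCm38, and the role of each is not given in the sources used here. Bins of a gene identifier were summed (46725 genes, 391858 bins). Bins counted for overlapping genes can hold reads of both. Counts naming no gene (2.82% to 4.14% of a library) were left out. Genes without a symbol (205) were tested but not named.

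Genes with a minimum count of 10 and a total of 15 by edgeR's filter were kept (15574), normalized by TMM and tested in edgeR 4.0.16 (R 4.3.3) by the quasi-likelihood test with the 9 quadriceps libraries in 1 fit. The Benjamini-Hochberg adjusted P was called under 0.1. Exon bins were tested within their gene by edgeR's exon usage test (diffSpliceDGE). Genes were named by rule: the 10 higher and 10 lower with the smallest P, the first 8 that stay different and the first 8 newly changed, up to 4 called genes a list, genes discussed in the study and called genes with at least 7 CTG in a row; for bins, the 5 with the smallest P. A few items were left out and are not reported here. The members and the gene lists were chosen with earlier results of these data known. Gene coordinates and annotation are from GENCODE M21. DESeq2 1.42.0, limma 3.58.1 (voom), other normalizations and filters, the largest bin, a replicate block and leaving out mice were alternatives, and scripts were tested on simulated data. Deviations of same-numbered libraries of different quadriceps groups had correlations of -0.24 to 0.27. This range overlaps the 0.09 to 0.55 between same-numbered libraries of the muscles. The labels do not say what the replicate numbers mark. No pair of quadriceps libraries of a group was a duplicate (chi-square per gene 67.7 or more). Library totals were 98916844 to 130717686.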

Additional observations from a re-analysis of the deposited data

How the results depend on the processing

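Depth of about equal size in all 9 libraries limits genes near zero, and 3 mice a group limit the rest. Counts of genes called, called at least 2-fold, staying different and newly changed (219, 121, 189 and 19) were 748, 292, 496 and 143 with DESeq2 and 133, 71, 119 and 10 with the largest exon bin of a gene. They were 90, 60, 84 and 5 with a replicate block, although the labels do not say that the numbers pair the mice. With only the 6 treated and WT libraries, 120 genes were called and 74 at least 2-fold. Limma voom gave 8 newly changed genes, and an adjusted P under 0.05 left 62 staying different and 2 newly changed. Without both WT mice that went against their labeled sex (chosen after seeing the data, with 1 WT mouse left and the spread taken from the other groups), the counts were 35, 34, 32 and 3. Leaving out 1 mouse gave 50 to 306 called genes, 44 to 158 at least 2-fold, 47 to 220 staying different, 2 to 62 newly changed, 0 to 0 depending on the muscle, and 26 to 226 exon bins. Bins called (61) were 95 with diffSplice of limma voom and 112 with the replicate block. The other normalizations and filters left these counts within 1.5 times. The causes were not tested.

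Of 43 named called genes, 12 were called under all 19 alternatives: Txlnb, Myo1a, Galnt7, Lrba, Kmt2d, Serpinb1c, Uchl1, Prune2, Sytl2, Gdpd5, Dkk3 and Kcnn3. No named called gene turned its direction, which the lack of overlap of treated and WT mice all but fixed where mice were left out. Of the genes not called, with the largest bin Clcn1 turned to -0.024, Atp2a1 to 0.027 and Insr to -0.083, and without both WT mice Atp2a1 turned to 0.011. Leaving out 1 mouse gave -0.094 to 0.20 for Clcn1, -0.15 to 0.083 for Atp2a1, -0.033 to 0.13 for Bin1 and -0.023 to 0.21 for Mbnl1.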

Other observations

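Of the 189 genes that stayed different, several others were chosen after their values were seen. Actc1, the cardiac actin gene also made in developing muscle, was at 136, 211 and 372 CPM in WT mice, 21.3, 23.7 and 24.0 CPM in HSA-LR mice and 58.0, 33.9 and 14.9 CPM in treated mice (edgeR log2 FC -2.75, adjusted P = 0.0565; up to 0.190 without WT mouse 2, HSA-LR mouse 2 or treated mouse 2). Nrg2, a growth factor of the neuregulin family, was below 0.18 CPM in each WT mouse and at 0.823, 0.763 and 0.705 CPM in treated mice (edgeR log2 FC 2.41, adjusted P = 0.00954; 3.67 in HSA-LR mice), and was called with each mouse left out. Tead4, a transcription factor of myogenic differentiation, was at 4.61, 3.86 and 5.72 CPM in WT mice, 15.8, 15.3 and 19.8 CPM in HSA-LR mice and 10.2, 9.81 and 9.91 CPM in treated mice (edgeR log2 FC 1.07, adjusted P = 0.0274; 0.111 without treated mouse 1). Sbk2, a kinase gene, was at 19.8, 18.4 and 37.2 CPM in WT mice and 112, 110 and 94.8 CPM in treated mice (edgeR log2 FC 2.07, adjusted P = 0.0122; 2.16 in HSA-LR mice).

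Ucp1, the uncoupling protein of brown fat, was at 196, 13.4 and 27.7 CPM in WT quadriceps, 61.7, 190 and 0.0847 CPM in HSA-LR quadriceps and 0.624, 0.347 and 0.210 CPM in treated quadriceps, and was not called (edgeR adjusted P = 0.192).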
